A study of Oryza sativa with 7 samples.

Results

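The transcriptome of mir156abcdfghikl seedling shoots was compared with that of wild-type shoots over every gene listed in the deposited shoot table, 23283 of the 26168 genes that appear in any table of the study. Both groups were Nipponbare rice, a japonica cultivar, sampled as shoots of 2-week-old seedlings from seed sown in a paddy field. The mutant carries CRISPR/Cas9 edits in 10 MIR156 genes, named a, b, c, d, f, g, h, i, k and l, and MIR156e is not among them. The wild type carries none of these edits. The study's other groups were embryos of fresh seed from the wild type and from mir156abcdfghikl, and unelongated culms of 20-day-old seedlings from the wild type, mir156abckl and mir156defghi. The labels give the mutant shoots the line code D216 and the mutant embryos the code C403, so the tissues may come from different lines of the same genotype. Both shoot groups were sampled at the same age, and a difference in growth stage at that age cannot be told apart from a difference in expression.

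MicroRNA156 is a plant small RNA that pairs with messages of some of the SPL transcription factors, which carry an SBP-box DNA-binding domain, and lowers their output. It is abundant in young plants and declines as they age, and the SPL factors that it holds back shape leaf production, tillering and the passage from juvenile to adult growth. In rice, OsSPL14 (IPA1) is its best known target in shoot architecture. A shoot of this age is mostly leaf blade and leaf sheath around a small growing point, and photosynthesis genes are among its most abundant messages.

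The editing vectors were aimed at the genomic sites of the mature microRNA. They are shown at the loci MIR156d, MIR156a and MIR156l, since these show a stretch common to all lines and stretches that differ by 1 base. The study lists 3 lines of the 10-gene mutant, called A1, A2 and A3, and it is not stated which of them, if any, is D216. Sequences are written 5′ to 3′ as the study lists them, cut to the 24 bases that all lines give, and capitals mark a base that differs between the lines.
MIR156d, A1, A2 and A3: ccgtgtggctcactctcttctgtc
MIR156a, A1 and A2: ccacgtTgtgctcactctcttctg
MIR156a, A3: ccacgtGgtgctcactctcttctg
MIR156l, A1: ccgacaCgaagagagtgagcatat
MIR156l, A2 and A3: ccgacaTgaagagagtgagcatat
Counted from the left end, the A1 and A3 forms of MIR156a differ by T7G, and the A1 and A2 forms of MIR156l by C7T. The 13-base stretch gctcactctcttc, or its reverse complement gaagagagtgagc, was present in at least 1 line at 9 of the 10 loci. It was read in this orientation at 3 loci and as the reverse complement at 6. MIR156k had neither in any line. Of the 10 loci, only MIR156d was written identically in full in all 3 lines.

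The shoot table holds 1 FPKM value per group for each gene, over the 3 biological repeats that the methods give. FPKM, a fragment count scaled to transcript length and library size, is a level. Values per repeat were not analysed here, so no spread could be given and no test run. Read depth is not given in the sources used here. Below, "past 2-fold" means a mutant value at least 2 times or at most 0.5 times the wild-type value, with log2 ratios always mutant over wild type. These are descriptions of 2 pooled values and carry no error. The shoots lacked a seed signature. Oleosin genes, which coat seed oil bodies, summed to 1.58 FPKM in wild-type and 1.91 FPKM in mutant shoots over 2 listed genes, against 34635 FPKM over 6 genes in wild-type embryos. The 1 listed glutelin, a seed storage protein, was at 2.72 and 3.12 FPKM, and no prolamin was listed. Light-harvesting genes marked both groups as green tissue, with 50102 FPKM in wild-type and 8390 FPKM in mutant shoots.

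The mutant shoots differed from the wild type across much of the transcriptome. In the mutant, 6342 genes were past 2-fold higher (27.2% of those listed) and 5419 past 2-fold lower (23.3%), which together makes 50.5%. The same limits took in 9.35% of genes in mutant embryos, 14.5% in mir156abckl culms and 12.6% in mir156defghi culms. The median log2 ratio over the 22916 genes above 0 in both shoot groups was 0.14, and the quartiles were at -0.89 and 1.08. For the 8708 genes that reached 10 FPKM in each group the median was 0.01. Of the 13377 genes that reached 10 FPKM in either group, 24.9% were past 2-fold higher and 23.7% lower. Differences of 10-fold or more numbered 1788 higher and 966 lower. Genes below 1 FPKM in the wild type and at 10 FPKM or more in the mutant numbered 438, and 117 genes had the opposite pattern.

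**Figure D1:**
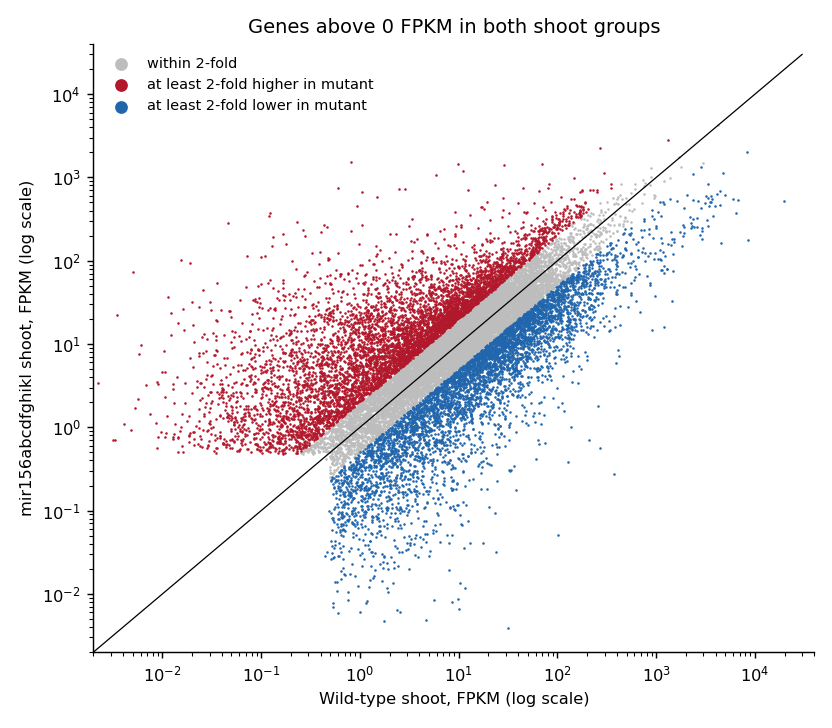
Level of each gene above 0 in both groups, with wild-type shoot FPKM on the horizontal and mir156abcdfghikl shoot FPKM on the vertical log axis; 1 point is 1 gene, red is past 2-fold higher and blue past 2-fold lower in the mutant. At high wild-type levels nearly all points lie below the line of equality, and the empty lower left corner is the listing limit of the table.

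The most abundant messages of the wild-type shoot were the ones most often lower in the mutant. Of the 89 genes at 1000 FPKM or more in the wild type, 92.1% were past 2-fold lower and 1.12% past 2-fold higher. Of the 1102 genes at 100 to 1000 FPKM, 60.7% were lower and 7.35% higher. Among the 9448 genes at 10 to 100 FPKM the shares were 25.7% lower and 12.3% higher. In the mutant only 19 genes reached 1000 FPKM, 9 of them genes that also did so in the wild type. The top 10 messages made up 9.11% of all FPKM in wild-type and 3.38% in mutant shoots, and the top 100 made up 30.9% and 13.6%. All genes added up to 814080 FPKM in wild-type and 603870 FPKM in mutant shoots. At the low end, 71.8% of genes under 1 FPKM in the wild type were higher in the mutant, but every listed gene had at least 0.445 FPKM in 1 of the groups, so a gene near 0 in one group had to be higher in the other. Binned by the mutant level instead, 59.9% of genes under 1 FPKM were lower. At 100 to 1000 FPKM in the mutant, 48.0% of 993 genes were higher and 14.7% lower. At 1000 FPKM or more in the mutant, 47.4% of the 19 genes were higher and 21.1% lower. The level that sets the bin is also part of the ratio, so each binning leans toward the group that sets it.

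The largest differences in level were in photosynthesis on the lower side, and in cytoskeleton, chromatin and cell surface proteins on the higher side. LOC_Os12g17600, a small subunit of RuBisCO, the carbon-fixing enzyme, was the most abundant message of the wild-type shoot at 19505 FPKM and was at 522 FPKM in the mutant. It lies on chromosome 12 at 10080397–10081661 of TIGR release 7, the build of all coordinates here, which are given as the files list them. LOC_Os01g45274, a chloroplast carbonic anhydrase on chromosome 1 at 25692716–25705090, was at 8544 and 176 FPKM. These 2 genes were 37.4-fold and 48.6-fold lower. The chlorophyll-binding LOC_Os01g41710 was at 8235 and 2011 FPKM, the photosystem II polypeptide gene LOC_Os08g10020 at 6803 and 538 FPKM, and LOC_Os11g47970, described as an AAA-type ATPase, at 6418 and 376 FPKM. LOC_Os01g41710 stayed the fourth most abundant message in the mutant in spite of its 4.1-fold lower value.

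On the higher side, LOC_Os11g14220 encodes a tubulin, a building block of microtubules, on chromosome 11 at 7960505–7963390. It was at 269 FPKM in the wild type and 2239 FPKM in the mutant. LOC_Os01g14850, described as an MFS18 protein precursor, was near absent from wild-type shoots at 0.82 FPKM and reached 1528 FPKM in the mutant. LTPL26 (LOC_Os12g02300), a lipid transfer family protein, was at 9.93 and 1433 FPKM. These values place genes of very different wild-type level side by side among the most abundant messages of the mutant. LOC_Os03g17100, a core histone gene, was at 69.9 and 1469 FPKM, and LOC_Os03g46770, with an RNA recognition motif, at 1320 and 2834 FPKM. LOC_Os11g06720 was the most abundant mutant message at 4211 FPKM and was at 4172 FPKM in the wild type.

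By ratio, the genes that differed most were low in one group, and the ratio is then uncertain because its smaller value is a small fraction of 1 FPKM. LOC_Os02g11040, of unknown function, was at 0.0051 and 74.0 FPKM, and POEI11 (LOC_Os10g05950), a Pollen Ole e I family protein, at 0.046 and 285 FPKM. LOC_Os09g34930, a 3-ketoacyl-CoA synthase of the kind that elongates fatty acids, was at 0.0035 and 22.004 FPKM. The defensin-like gene DEF7 (LOC_Os02g41904), of a family of small antimicrobial proteins, was at 0.123 and 378 FPKM. All these genes were near 0 in the wild type and well above 1 FPKM in the mutant. In the other direction, LOC_Os12g39360, an aspartic proteinase, was at 31.2 and 0.0039 FPKM, and LOC_Os12g38170, an osmotin, of a stress-related protein family, at 101 and 0.051 FPKM. The peroxidase LOC_Os02g14440 was at 369 and 0.278 FPKM and the lectin LOC_Os12g14440 at 271 and 0.561 FPKM. There were 260 genes listed at 0 in the wild type, the highest of them POEI1 (LOC_Os03g14130) at 234 FPKM in the mutant, a gene that shares its locus with another. Another 107 genes were listed at 0 in the mutant, the highest of them LOC_Os03g62670 at 173 FPKM in the wild type.

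**Figure D2:**
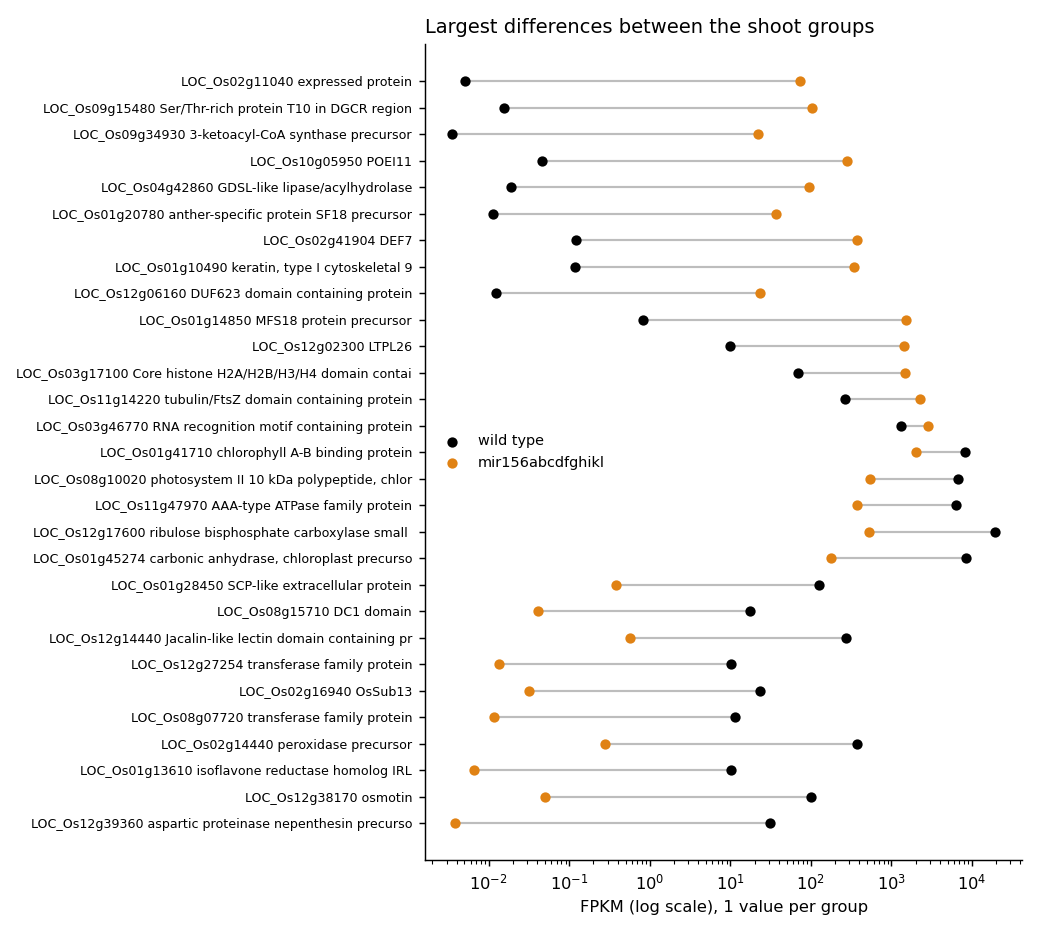
Wild-type (black) and mir156abcdfghikl (orange) shoot FPKM on a log axis for the genes with the 10 highest and 10 lowest log2 ratios and the 5 largest differences in FPKM each way. The photosynthesis genes sit at the right with the mutant value to the left of the wild type, and the tubulin, histone and LTPL26 genes have the reverse order.

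Genes were grouped into 61 classes by the words of their descriptions. The median log2 ratio, over members above 0 in both groups, was 1 or more in 11 classes, -1 or less in 18, and between in 32. Growth-regulating factors, DNA replication proteins, histones, kinesins and cytosolic ribosomal proteins were among the higher classes. Photosystem, light-harvesting, metallothionein, terpene synthase and wall-associated kinase genes were among the lower. Class counts are read against the 27.2% of all genes that were higher and the 23.3% that were lower. In a whole shoot, fewer cells of a type and less RNA per cell cannot be told apart.

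**Figure D3:**
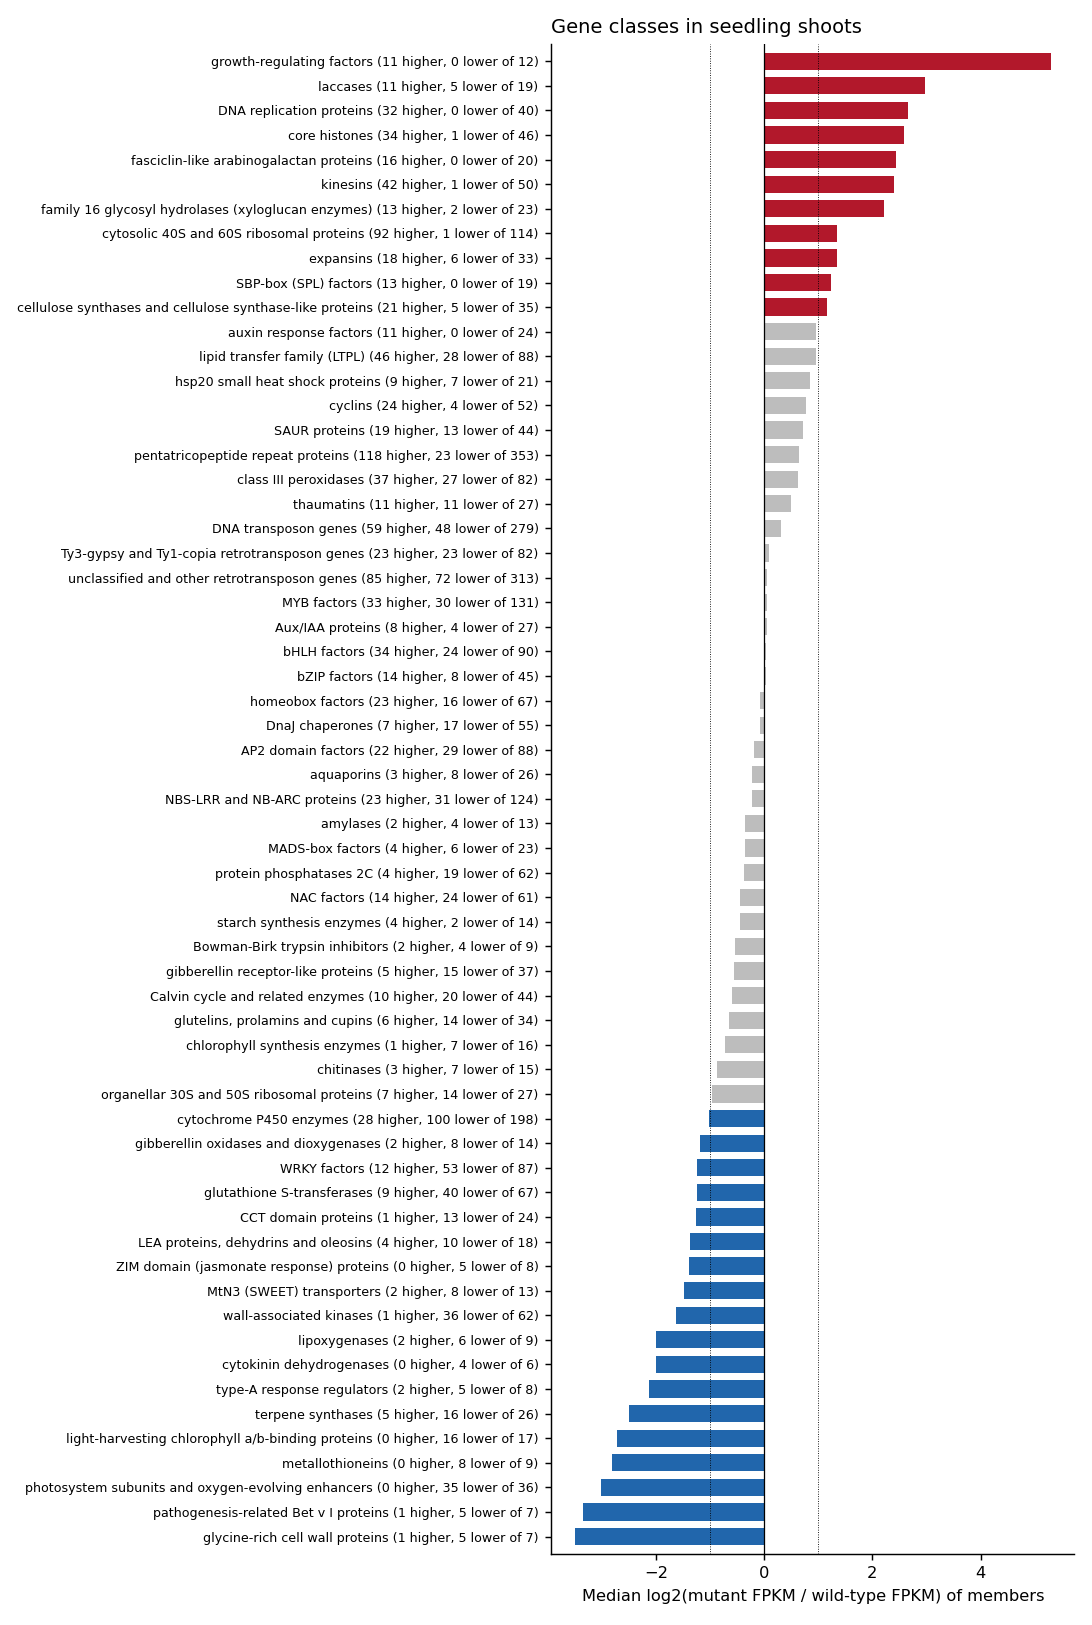
Median log2 ratio of mutant over wild-type shoot FPKM for each of the 61 gene classes, with the members past 2-fold higher and lower beside each name; red bars are at 1 or more, blue at -1 or less, and dotted lines mark those limits. Growth-regulating factors stand highest at 5.29 and glycine-rich cell wall proteins lowest at -3.50.

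Light-harvesting and photosystem genes were lower in the mutant shoots with 1 exception in each class. Light-harvesting proteins bind chlorophyll and pass light energy to the photosystems. Of their 17 genes, 16 were past 2-fold lower (94.1%) and none higher, with a median log2 ratio of -2.72. The wild-type levels ranged from 45.7 to 8235 FPKM and the mutant levels from 12.6 to 2011 FPKM. The exception was LOC_Os04g59440, at 103 and 122 FPKM. The lowest ratio was that of LOC_Os01g52240, at 4563 and 165 FPKM, whose locus is shared with another gene. LOC_Os07g38960 was at 2276 and 259 FPKM.

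Photosystem subunits and oxygen-evolving enhancers, which carry out charge separation and water splitting, were past 2-fold lower in 35 of 36 genes (97.2%), with a median of -3.01. LOC_Os12g08770, photosystem I subunit N, was at 2928 and 182 FPKM. LOC_Os08g10020, given above, was the most abundant member. LOC_Os07g05360 was the only member not lower, at 40.4 and 48.8 FPKM. Of the 36 genes, 15 are described as proteins that chloroplast DNA also encodes, such as P680, P700 and D2. They are at 0.445 to 15.2 FPKM in the wild type, and their counts are uncertain because near-identical plastid copies exist. Without them 20 of 21 members were lower, with a median of -2.88.

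Chlorophyll synthesis was lower in 7 of 16 genes and higher in 1 (median -0.72). LOC_Os01g17170, the cyclase that closes the fifth ring of chlorophyll, was at 580 and 101 FPKM, and the magnesium chelatase gene LOC_Os03g20700, at the entry to the chlorophyll branch, at 240 and 51.2 FPKM. The higher one, a chlorophyllide a oxygenase, had less than 1 FPKM in both groups.

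The class of Calvin cycle enzymes and their relatives was split. It was matched by words and is wider than the cycle. Among its higher members was LOC_Os02g57400, described as 2-phosphoglycerate kinase-related, at 3.32 and 11.6 FPKM. All members added up to 40984 FPKM in wild-type and 5052 FPKM in mutant shoots, with 20 of 44 genes lower and 10 higher. The aldolase LOC_Os06g40640 was at 1469 and 75.2 FPKM. Another aldolase, LOC_Os05g33380, was at 88.6 and 311 FPKM, and at 640 FPKM in wild-type embryos. Members of the same enzyme family thus lay on opposite sides. Ribosomal proteins of the bacterial 30S and 50S type, used in plastids and mitochondria, were split in the same way, with 14 of 27 lower and 7 higher. LOC_Os01g44210, for 50S protein L31, was at 482 and 144 FPKM, and LOC_Os09g32274, for 30S protein S16, at 7.72 and 27.5 FPKM. Pentatricopeptide repeat proteins, which process organellar RNA, were past 2-fold higher in 118 of 353 genes (33.4%) and lower in 23 (6.52%), with a median of 0.63. Most had low levels, and of the 48 that reached 10 FPKM in at least 1 group, 7 lay past 2-fold on the higher and 12 on the lower side (median -0.38).

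Protein synthesis outside the organelles had the opposite direction. Cytosolic ribosomal protein genes summed to 7372 FPKM in the wild type and 19262 FPKM in the mutant, and 92 of 114 (80.7%) were past 2-fold higher with a median of 1.35. LOC_Os05g38520, for 60S protein L36, was the most abundant in the mutant at 681 FPKM against 176 FPKM. LOC_Os01g73160, for 40S protein S10, was at 11.7 and 92.5 FPKM. LOC_Os05g49020, described as L18a, was the single member past 2-fold lower, at 93.0 and 29.6 FPKM.

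Cell division genes were higher in the mutant as a group. DNA replication proteins were past 2-fold higher in 32 of 40 genes (80.0%) and lower in none, with a median of 2.66. The 6 subunits of the MCM2 to MCM7 helicase, which opens DNA at replication origins, stood at 1.01 to 2.47 FPKM in the wild type and 18.5 to 36.8 FPKM in the mutant. MCM3 (LOC_Os05g39850) had the widest gap, at 1.49 and 36.8 FPKM. The ribonucleotide reductase gene LOC_Os06g14620, for the enzyme that makes DNA precursors, was at 11.6 and 87.2 FPKM.

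Core histones, which package new DNA, summed to 3754 and 13269 FPKM, with 34 of 46 genes (73.9%) higher and 1 lower. The histone H3 gene LOC_Os05g36280 was at 12.4 and 708 FPKM, and LOC_Os03g14669, the lower one, at 127 and 13.0 FPKM. Kinesins, motor proteins of the spindle and of the division plane, were higher in 42 of 50 genes (84.0%). LOC_Os12g39980 was at 0.155 and 11.8 FPKM, while LOC_Os08g43400, the most abundant kinesin of the wild type, was at 74.3 and 62.5 FPKM. Cyclins, the timing subunits of cell cycle kinases, were higher in 24 of 52 genes (46.2%) and lower in 4. LOC_Os10g41430 was at 1.21 and 41.0 FPKM and LOC_Os04g53680 at 50.4 and 3.99 FPKM, so the cyclins held members at both extremes.

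Cell wall genes were mostly higher, family by family and with exceptions. Expansins, which loosen walls during growth, were higher in 18 of 33 genes (54.5%) and lower in 6. LOC_Os02g42650 was at 0.091 and 31.7 FPKM, and LOC_Os03g04020 at 76.4 and 19.0 FPKM. Family 16 glycosyl hydrolases, which cut and rejoin xyloglucan, were higher in 13 of 23 genes, among them LOC_Os04g53950 at 0.266 and 233 FPKM. Cellulose synthases and their relatives were higher in 21 of 35 genes, among them CESA1 (LOC_Os05g08370), a catalytic subunit, at 122 and 319 FPKM. Fasciclin-like arabinogalactan proteins, glycoproteins of the cell surface, were higher in 16 of 20 genes and lower in none. LOC_Os02g20540, with a fasciclin domain, was at 0.207 and 98.3 FPKM.

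Other wall families were not of one direction. Class III peroxidases, which cross-link wall polymers, were higher in 37 and lower in 27 of 82 genes. The peroxidase LOC_Os01g10850 was at 0.29 and 73.6 FPKM. Laccases, which polymerise lignin precursors, had a median of 2.98 but added up to 234 FPKM in wild-type and 158 FPKM in mutant shoots. That median was -0.086 when only members with at least 1 FPKM in each group were kept. The most abundant laccase, LOC_Os01g63190, was at 124 and 15.0 FPKM, whereas LOC_Os07g01110 was at 0.035 and 12.6 FPKM. Glycine-rich cell wall proteins were lower in 5 of 7 genes. Among them LOC_Os01g06310 was at 23.3 and 0.0935 FPKM.

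Transcription factor families differed in direction. SPL factors, a family that holds the targets of the microRNA and other members that it does not target, were past 2-fold higher in 13 of 19 genes and lower in none. Among the targets, IPA1 (OsSPL14, LOC_Os08g39890) was at 1.07 and 33.8 FPKM, and OsSPL13 (LOC_Os07g32170) at 5.11 and 33.6 FPKM. OsSPL15 (LOC_Os08g40260), the most abundant member and not among the targets that the study lists, was at 75.5 and 100.2 FPKM, within 2-fold. OsSPL5 (LOC_Os02g08070) and OsSPL10 (LOC_Os06g44860), likewise not among them, were listed at 0 in the wild type and were at 6.12 and 9.68 FPKM in the mutant.

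Growth-regulating factors, which promote cell proliferation in young leaves, had the highest class median, 5.29, with 11 of 12 genes higher (91.7%) and none lower. Their wild-type values ranged from 0 to 21.9 FPKM and the mutant values from 3.14 to 62.2 FPKM. LOC_Os03g51970 was at 0.0915 and 23.6 FPKM, and LOC_Os02g45570 at 0.139 and 27.0 FPKM. The member within 2-fold, LOC_Os07g28430, was the most abundant in the wild type, at 21.9 and 36.5 FPKM.

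WRKY factors, which regulate defence genes, were lower in 53 of 87 genes (60.9%) and higher in 12, with a median of -1.23, or -0.86 with 1 FPKM added to both values. WRKY45 (LOC_Os05g25770), a regulator of blast resistance in rice, was at 149 and 26.2 FPKM. WRKY77 (LOC_Os01g40260) was at 25.2 and 1.10 FPKM, and WRKY83 (LOC_Os05g50680) at 1.15 and 20.0 FPKM. NAC factors, many of them tied to stress and ageing, were lower in 24 and higher in 14 of 61 genes. CCT domain proteins, which include regulators of light response and flowering time, were lower in 13 of 24 genes and higher in 1. Among them LOC_Os06g44450, of the B-box type, was at 402 and 86.1 FPKM.

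Other families had members in both directions. MYB factors were higher in 33 and lower in 30 of 131 genes, bHLH factors in 34 and 24 of 90, AP2 domain factors in 22 and 29 of 88, and homeobox factors in 23 and 16 of 67. Basic leucine zipper (bZIP) factors were higher in 14 and lower in 8 of 45, and MADS-box factors in 4 and 6 of 23. Single members still differed widely. The homeobox gene LOC_Os02g13310 was at 0.104 and 14.5 FPKM, and the MYB gene LOC_Os08g06110, at 360 FPKM the most abundant MYB message of the wild type, was at 64.2 FPKM in the mutant. The AP2 gene LOC_Os09g26420 was at 560 and 294 FPKM.

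Hormone genes are given class by class beside the background, without a test, and several of these classes hold few genes. Type-A response regulators, which are induced by cytokinin and damp its signal, were lower in 5 of 8 genes. OsRR2 (LOC_Os02g35180) was at 124 and 15.3 FPKM, and OsRR10 (LOC_Os11g04720), which shares its locus with another gene, at 53.6 and 1.95 FPKM. OsRR5 (LOC_Os04g44280) and OsRR7 (LOC_Os07g26720) were listed at 0 in the wild type and were at 2.56 and 4.68 FPKM in the mutant. Cytokinin dehydrogenases, which degrade the hormone, were lower in 4 of 6 genes, among them LOC_Os01g71310 at 12.4 and 0.45 FPKM. Both classes of the cytokinin pathway were thus mostly at lower levels in the mutant.

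Auxin response factors, which bind DNA in auxin signalling, were higher in 11 of 24 genes (45.8%) and lower in none. LOC_Os06g09660 was at 1.52 and 11.4 FPKM. Their repressors, the Aux/IAA proteins, were higher in 8 and lower in 4 of 27 genes, among them OsIAA30 (LOC_Os12g40890) at 7.17 and 97.4 FPKM. ZIM domain proteins, repressors of jasmonate signalling, were lower in 5 of 8 genes and higher in none. Lipoxygenases, some of which start jasmonate synthesis, were lower in 6 of 9. The lipoxygenase LOC_Os12g37260 was at 205 and 13.3 FPKM. Gibberellin oxidases and dioxygenases, which make and inactivate gibberellin, were lower in 8 of 14 genes and higher in 2. LOC_Os03g42130, for a gibberellin 20 oxidase, was at 73.0 and 15.3 FPKM, and the inactivating enzyme gene LOC_Os05g11810 (GA2ox10) at 8.76 and 58.3 FPKM. Gibberellin receptor-like proteins were lower in 15 and higher in 5 of 37 genes, and SAUR proteins, small early auxin-response proteins, higher in 19 and lower in 13 of 44. Of the 12 SAUR genes that reached 10 FPKM in at least 1 group, 5 were higher and 6 lower. Protein phosphatases 2C, of which some inhibit abscisic acid signalling, were lower in 19 of 62 genes (30.6%) and higher in 4.

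Defence and specialised metabolism was lower in most classes. Wall-associated kinases, receptors that sense the cell wall, were past 2-fold lower in 36 of 62 genes (58.1%) and higher in 1, with a median of -1.63, or -0.76 over members with at least 1 FPKM in each group. OsWAK112d (LOC_Os10g10130) was at 70.4 and 3.54 FPKM. Terpene synthases, which build volatile and defensive terpenoids, summed to 1468 FPKM in the wild type and 113 FPKM in the mutant, with 16 of 26 genes lower and 5 higher. Their median was -2.50, or -0.99 with 1 FPKM added to both values. A single gene, LOC_Os08g04500, carried most of that sum, at 1192 and 15.96 FPKM. Cytochrome P450 enzymes, a large family of oxygenases, were lower in 100 of 198 genes (50.5%) and higher in 28. LOC_Os06g01250 was at 556 and 53.3 FPKM, and LOC_Os03g04530 at 0.124 and 59.4 FPKM.

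Glutathione S-transferases, which detoxify reactive compounds, were lower in 40 of 67 genes (59.7%) and higher in 9. LOC_Os10g38710 was at 630 and 33.0 FPKM, and LOC_Os03g04220 at 0.132 and 191 FPKM. Bet v I family proteins, of the PR-10 pathogenesis-related type, were lower in 5 of 7 genes. LOC_Os12g36880 was at 411 and 8.53 FPKM, while LOC_Os04g39150 was at 23.5 and 804 FPKM and made the summed level of the family higher in the mutant. Chitinases were lower in 7 and higher in 3 of 15 genes. Thaumatins were divided 11 to 11 among 27 genes, and NBS-LRR immune receptors, with 31 of 124 lower and 23 higher, stood near the background.

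Most stress and storage classes had more genes lower than higher. The exceptions were the lipid transfer family, given below, and hsp20 heat shock proteins, with 9 of 21 genes higher and 7 lower. Metallothioneins, small proteins that bind metals, were lower in 8 of 9 genes and higher in none, and added up to 4389 FPKM in wild-type and 864 FPKM in mutant shoots. LOC_Os01g05650 was at 1149.8 and 76.6 FPKM. Late embryogenesis abundant (LEA) proteins and dehydrins, which protect cells from drying, were counted in 1 class with the oleosins. This LEA class was lower in 10 of 18 genes and higher in 4. Of the 7 that reached 10 FPKM in at least 1 group, 3 were lower and 1 higher (median -0.19). LOC_Os01g21250 was at 913 and 14.5 FPKM and the dehydrin LOC_Os03g45280 at 380 and 15.9 FPKM. The lipid transfer (LTPL) family, small secreted proteins, had 46 of 88 genes higher and 28 lower, with LTPL129 (LOC_Os06g43600) at 0.099 and 112 FPKM and LTPL108 (LOC_Os03g14654) at 1514 and 169 FPKM. The class of glutelins, prolamins and cupins was lower in 14 and higher in 6 of 34 genes. DnaJ chaperones were lower in 17 and higher in 7 of 55, and Bowman-Birk trypsin inhibitors lower in 4 and higher in 2 of 9. The inhibitor BBTI1 (LOC_Os01g03310) was at 209 and 0.696 FPKM.

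Transport and starch genes were less uniform. MtN3 (SWEET) sugar transporters were lower in 8 of 13 genes and higher in 2. LOC_Os01g50460 was at 114 and 25.1 FPKM, and LOC_Os08g42350 at 0.277 and 34.5 FPKM. Aquaporins, the water channels, were lower in 8 and higher in 3 of 26 genes, among them LOC_Os09g36930 at 421 and 7.10 FPKM and LOC_Os04g16450 at 58.0 and 490 FPKM. Starch synthesis enzymes were higher in 4 and lower in 2 of 14, and amylases, which degrade starch, lower in 4 and higher in 2 of 13. Genes annotated as mobile elements were close to the background. Retrotransposon genes of the Ty3-gypsy and Ty1-copia types were higher in 23 and lower in 23 of 82 genes, other retrotransposon genes in 85 and 72 of 313, and DNA transposon genes in 59 and 48 of 279. A single Ty3-gypsy gene, LOC_Os07g40130, was at 17.2 and 444 FPKM.

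The shoot difference was also read along an axis that used no shoot sample, the ratio of wild-type embryo to wild-type culm FPKM. These tables were normalized separately, so the axis only ranks genes. Among the 684 genes over 16 times higher in culms, 44.2% were past 2-fold lower in mutant shoots and 16.7% higher, with a median log2 ratio of -0.75. Among the 228 genes over 16 times higher in embryos, 51.8% were higher and 28.5% lower, and the median was 1.05. With wild-type culm FPKM from the mir156defghi table this median was 0.62, below the 0.79 of the genes 4 to 16 times higher in embryos. The order of these bins was thus not stable. The 2 culm tables share their wild-type samples but list partly different genes, so the genes in a bin can differ. The 15861 genes within 4 times lay between, with a median of 0.30, and 27.4% of them were higher and 14.1% lower. By median, embryo-biased genes thus tended to be higher in mutant shoots and culm-biased genes lower, though the quartiles of every bin overlapped. The most embryo-biased bin also held a larger share of lower genes than the genes within 4 times. A gene near 0 in wild-type shoots is listed only if it is higher in mutant shoots. Likewise, a gene near 0 in wild-type culms enters the bins only if it is higher in mir156abckl culms. Of the genes past 2-fold higher in those culms and listed in both tables, 82.5% were also higher in mutant shoots. The axis is therefore not independent of the mutants, and the part of these limits here was not tested.

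**Figure D4:**
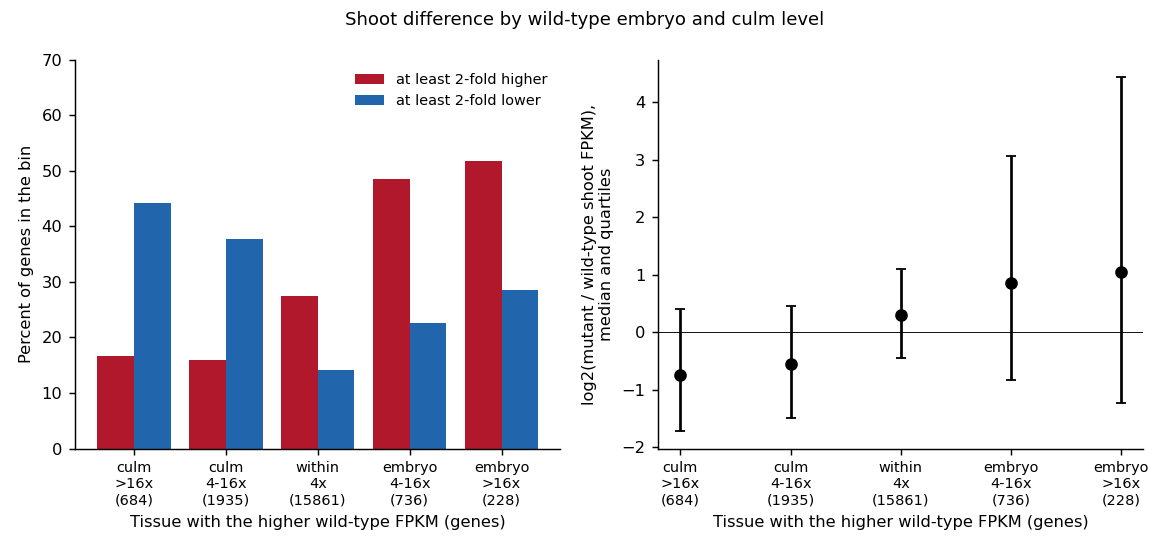
Left, percent of genes past 2-fold higher (red) and lower (blue) in mutant shoots for 5 bins of the wild-type embryo to culm FPKM ratio; right, median log2 ratio in shoots with bars from the lower to the upper quartile of genes. Numbers of genes are in parentheses, and the medians run from -0.75 in the most culm-biased bin to 1.05 in the most embryo-biased bin. The latter is at 0.62 with wild-type culm FPKM from the mir156defghi table, which lists a partly different set of genes.

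The shoot comparison shares no sample with the embryo or culm comparisons. Of the 19866 genes also listed in embryos, 27.3% were past 2-fold higher in shoots and 18.5% lower. Of the 1028 embryo-higher genes among them, 353 (34.3%) were higher in shoots, which is 6.52% of the shoot list, and 406 (39.5%) were lower in shoots, 11.02% of that list. Embryos and shoots of the same genotype thus shared genes in both directions. Of the 488 embryo-lower genes, 168 (34.4%) were lower in shoots and 180 (36.9%) higher. IPA1 was higher in both, at 8.69 and 86.9 FPKM in embryos, as was OsSPL3 (LOC_Os02g04680) at 18.4 and 82.5 FPKM in shoots and 5.53 and 23.2 FPKM in embryos. The YABBY gene LOC_Os04g45330, of a family that patterns lateral organs, was at 0.054 and 12.02 FPKM in shoots and 5.94 and 21.9 FPKM in embryos.

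Genes lower in both tissues included the metallothionein-like LOC_Os05g11320, at 19.5 and 0.181 FPKM in shoots and 22.4 and 1.72 FPKM in embryos, and GNP1 (LOC_Os03g63970), a gibberellin 20 oxidase, at 11.5 and 1.81 FPKM in shoots and 10.8 and 1.54 FPKM in embryos. Opposite directions were seen for the photosynthesis genes. Light-harvesting genes were higher in 15 of the 16 listed in embryos, where 5.73% of all genes were higher and 3.62% lower, and their sum there was 96.7 and 259 FPKM. In shoots the same family was 5.97-fold lower in sum.

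In culms, 6.85% of genes were past 2-fold higher and 7.68% lower in mir156abckl, and 5.86% and 6.74% in mir156defghi. Among the 21828 genes listed in both tables, 1112 of the 1348 that were past 2-fold higher in mir156abckl culms (82.5%) were higher in mutant shoots, where 27.0% of these genes were. That is 18.9% of the shoot list. Of the 1365 culm-lower genes, 997 (73.0%) were lower in shoots, against 21.2% of these genes. Opposite directions were found for 92 genes higher in shoots and 95 lower in shoots. In mir156defghi culms 719 of 1095 higher genes (65.7%) and 645 of 1052 lower genes (61.3%) had the same direction in shoots, where 26.6% and 21.4% of the 21739 genes in both tables were higher and lower. Opposite directions were found for 135 genes higher in shoots and 192 lower in shoots. A gene very low in both wild-type tissues is in both tables only if it is higher in both mutants. Likewise, a gene very low in both mutants is in both tables only if it is lower in both. The shared direction of such genes is fixed in advance, in the embryo overlap as well. LOC_Os07g32710, for example, was at 0.134 FPKM in wild-type shoots and 0.116 FPKM in wild-type culms. The part of this limit in the overlaps was not tested. MFS18 (LOC_Os01g14850) was at 1.68 FPKM in wild-type and 56.4 FPKM in mir156abckl culms. The thaumatin LOC_Os12g43380, whose locus holds 3 genes, was at 442 and 24.9 FPKM in those culms and at 102 and 1.77 FPKM in shoots. Across the 19354 genes listed in all 4 tables, 79 were past 2-fold higher in every mutant and 23 lower in every mutant. The 2 culm comparisons share their wild-type samples.

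**Figure D5:**
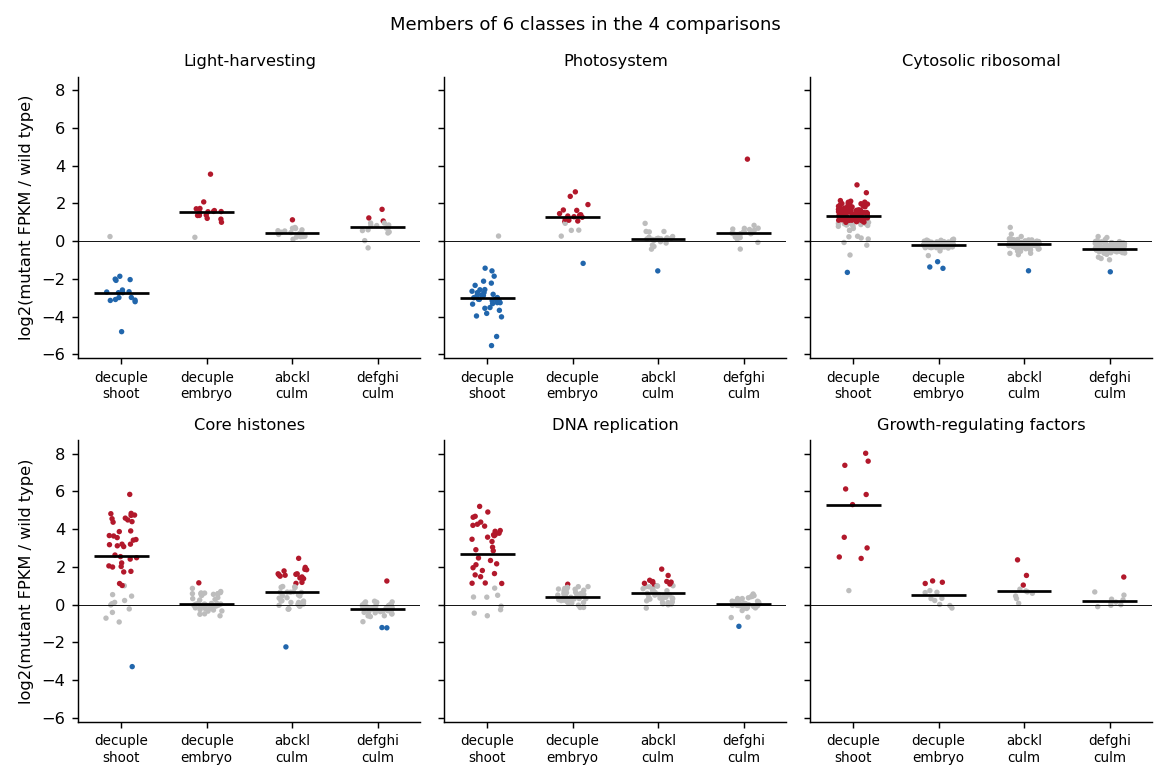
Log2 ratio of mutant over wild-type FPKM for members of 6 gene classes in 4 comparisons, where decuple stands for mir156abcdfghikl, abckl for mir156abckl and defghi for mir156defghi; 1 point is 1 gene above 0 in both groups, red past 2-fold higher, blue past 2-fold lower, and bars are medians. Light-harvesting members lie at a median of -2.72 in shoots and 1.54 in embryos, and growth-regulating factors at 5.29 and 0.48.

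Division and ribosomal classes that stood out in shoots had medians closer to equality in the other tables. DNA replication proteins had a median log2 ratio of 2.66 in shoots, 0.38 in embryos, 0.61 in mir156abckl culms and 0.04 in mir156defghi culms. Core histones were at 2.58, 0.02, 0.65 and -0.22 in the same order. Cytosolic ribosomal proteins were at 1.35, -0.18, -0.16 and -0.39. The division classes still held many higher genes in mir156abckl culms, where 6.85% of all genes were higher. There 10 of 40 DNA replication, 16 of 46 histone and 18 of 47 kinesin genes were past 2-fold higher, and 0, 1 and 0 lower. In mir156defghi culms 0 of 38, 1 of 46 and 3 of 47 were higher. WRKY factors were at -1.23, 0.08, -0.55 and -0.34, so that class too was farthest from equality in shoots. In mir156abckl culms 31 of 83 WRKY genes were past 2-fold lower and 3 higher, where 7.68% of all genes were lower. Terpene synthases were at -2.50 in shoots and -2.42 in mir156abckl culms, and ZIM domain proteins at -1.39 and -1.74, the farther value being that of the culms.

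The differences were spread over the genome. By chromosome, 25.7% to 28.5% of genes were past 2-fold higher and 20.7% to 25.5% lower, and the median log2 ratio ran from 0.09 to 0.21 over the 12 chromosomes. Neighbouring listed genes that shared a direction formed short runs, in which genes not listed for shoots were passed over. On chromosome 10 at 2925233–3032720, 11 adjacent listed genes from LOC_Os10g05800 to LOC_Os10g06000 were all past 2-fold higher. All but an F-box gene and 1 gene of unknown function were of the Pollen Ole e I family. On chromosome 2 at 21625021–21847837, 8 adjacent listed genes from LOC_Os02g36000 to LOC_Os02g36210 were lower. All but a zinc finger gene were P450 or terpene synthase family genes. LOC_Os02g36140, a terpene synthase in that run, was at 13.1 and 0.041 FPKM. On the same run the P450 gene LOC_Os02g36190 was at 12.4 and 0.076 FPKM. Short loci held more of the differences. Of genes alone at their locus, 33.4% of those of 201 to 2347 bases were lower, against 15.6% of those of 4237 to 35383 bases, and the medians were -0.14 and 0.28. The shares past 2-fold higher were 29.95% and 25.95%.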

How the data were processed

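Per the labels and the study's methods, RNA of 2 shoot groups was made into strand-specific mRNA libraries from 3 biological repeats per group, aligned with HISAT2 (version not given in the sources used here) and quantified with Cufflinks 2.2.1 against TIGR release 7. The authors deposited FPKM values as 1 column per group and table, which pools the repeats, so no spread, test or interval was computed and read depth is unknown. Each of the 4 tables was normalized separately, and 8 FPKM columns were used. The tables also hold the authors' own fold changes, directions, p-values and q-values, which were not used.

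Ratios of mutant to wild-type FPKM were computed with nothing added, in Python 3.11.15 with numpy 2.4.6 and pandas 2.3.3, and plotted with matplotlib 3.10.9. Limits were 2 and 0.5. A gene at 0 in one group counted as past the limit but entered no median.

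Classes were formed from words in the gene descriptions. Genes were named by rule: the 10 highest and 10 lowest log2 ratios among genes that reached 10 FPKM, the 5 largest differences each way, up to 3 per class and direction with the most abundant member, up to 5 at 0 in one group, up to 5 per overlap, and genes that the study itself discusses. The genes named as exceptions to a class, OsSPL5, OsSPL10, OsRR5, OsRR7, LOC_Os11g06720 and the end genes of runs were chosen after their values were seen. The classes and other lists were chosen with earlier results of these data known. Genes that share a locus with another, and nuclear copies of plastid genes, have uncertain values.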

Additional observations from a re-analysis of the deposited data

Results flagged for a closer look

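In 3 of the 61 classes the median log2 ratio of mir156abcdfghikl over wild type was past 1 or -1 in both shoots and embryos with opposite signs. Other classes had opposite signs with 1 or both medians nearer to 0. Light-harvesting genes were at -2.72 in shoots and 1.54 in embryos, with 16 of 17 lower in shoots and 15 of 16 higher in embryos. Photosystem genes were at -3.01 in shoots and 1.28 in embryos, with 35 of 36 lower in shoots and 15 of 20 higher in embryos. Bet v I genes were at -3.35 in shoots and 1.12 in embryos, with 5 of 7 lower in shoots and 4 of 7 higher in embryos. These differences between tissues were not tested, since each group has 1 pooled value per gene.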

How the results depend on the processing

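The counts past 2-fold, 6342 higher and 5419 lower, moved by over 1.5 times in 3 cases. With only genes at 1 FPKM or more in both groups, 3864 were higher, a setting that tests fewer genes. With limits of 4 and 0.25 there were 3269 higher and 2640 lower, since fewer genes pass wider limits. Centring log2 ratios on the median gave 5921 higher and 5764 lower. The laccase median turned from 2.98 to -0.086 when only members that reached 1 FPKM in each group were kept. Of the 29 class medians past 1 or -1, 7 no longer were with 1 FPKM added to both groups, 7 with at least 1 FPKM in both, 2 with at least 10 FPKM in either group, 1 with 0.1 FPKM added and none with the other settings. With 1 FPKM added these were expansins (0.82), gibberellin oxidases (-0.86), WRKY factors (-0.86) and P450 enzymes (-0.71). The LEA class, which includes dehydrins and oleosins (-0.46), terpene synthases (-0.99) and glutathione S-transferases (-0.98) were the others. With at least 1 FPKM in both they were laccases, expansins (0.60), family 16 glycosyl hydrolases (0.97) and gibberellin oxidases (-0.91). The LEA class (-0.19), P450 enzymes (-0.77) and wall-associated kinases (-0.76) were the others. With at least 10 FPKM in either group they were laccases (0.27) and the LEA class (-0.19), and with 0.1 FPKM added P450 enzymes (-0.996). With wild-type culm FPKM from the mir156defghi table, which lists a partly different set of genes, the median of the most embryo-biased bin was 0.62 in place of 1.05. Of 369 named genes past 2-fold, 4 no longer were with 1 FPKM added and 3 when centred, and none changed sign. Leaving out genes with shared loci, keeping class members with at least 10 FPKM, and running the tissue axis without the plastid, cytosolic ribosomal and division classes were chosen after seeing the data. No paired analysis was possible because each group has 1 pooled value per gene, and leaving out a repeat was not possible for the same reason.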

Other observations

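Several families not among the 61 classes were looked at after their values were seen and are given as values. Of all genes listed, 27.2% were past 2-fold higher and 23.3% lower. GASA (GASR) proteins, small cysteine-rich peptides of which many respond to gibberellin, were past 2-fold higher in 8 of 9 genes and lower in 1. Their summed FPKM was 45.0 in wild-type and 584 in mutant shoots. Tubulin family genes were higher in 15 of 16 and lower in 1, with sums of 1149 and 6118 FPKM. Pollen Ole e I proteins were higher in 17 and lower in 5 of 28 genes, with sums of 322 and 4422 FPKM. IQ calmodulin-binding proteins were higher in 26 of 32 and lower in none, and MIP1 proteins were higher in 8 of 8. T-complex proteins were higher in 16 and lower in 1 of 20, and GDSL-like lipases higher in 47 and lower in 13 of 83. Among transcription factors, TCP genes, which regulate growth of leaves and branches, were higher in 9 of 12. PLETHORA and AINTEGUMENTA genes, known from meristems and young organs, were higher in 4 of 5. The median of these 5 genes was 0.0058 FPKM in the wild type and 2.40 FPKM in the mutant, and 2 were listed at 0 in the wild type. Genes that low are listed only if higher in the mutant. The only 1 that reached 10 FPKM had a log2 ratio of 0.31. Fibrillins of the plastid were lower in 7 of 8 genes and higher in none. SCP-like extracellular proteins were lower in 8 and higher in 2 of 12.

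In classes with members on both sides, wild-type levels in embryos were set beside those in shoots, across tables normalized separately. In the class of Calvin cycle enzymes and relatives, the 9 embryo-listed genes higher in mutant shoots all had more FPKM in wild-type embryos than in wild-type shoots. The 17 lower in mutant shoots all had less. The same held for 7 of 7 and 11 of 11 organellar ribosomal protein genes. In the lipid transfer family it held for 19 of 24 higher and 12 of 18 lower genes, and among class III peroxidases for 17 of 24 and 11 of 13. The wild-type shoot value enters both the ratio that sorted the genes and the comparison with embryos, so these counts lean this way in advance. A gene low in wild-type shoots is listed only if it is higher in mutant shoots. The part of both limits in these counts was not tested.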
